A study of Arabidopsis thaliana with 30 samples.

Results

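The comparison described here sets a section of the Arabidopsis thaliana root, taken from 270 to 340 along the root counted from the tip, against the stump that remains directly after the root tip has been cut off. It rests on 7 of the study's 30 Affymetrix ATH1 arrays, chosen by their titles: 3 arrays of the section and 4 of the stump at 0 h. The study followed gene expression while excised root tips were regenerated, and its design text gives the section the role of a wounded control without regeneration. The other 23 arrays hold intact tips and later stumps, and they enter here through the shared estimate of the spread and through 2 side comparisons at the end.

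The section arrays carry Col-0 root harvested at once after cutting, and their labels give no age. The stump arrays at 0 h carry Col-0 roots 4 days post germination (dpg), from which the distal 130 µm had been cut away and the next 70 µm was taken immediately. Seedlings of both groups had grown on agar under long days, and no mutant, transgene or chemical was used. The treatment protocol gives lengths in µm and the titles give the same numbers in mm, so the position of the section is quoted without a unit. An array stands for a pool of at least 25 tissue pieces, from which 50 ng of RNA went through 2 rounds of amplification. Nothing states that the pools came from separate sowings, so p-values cover array-to-array spread, which may be technical. Both tissues mix several cell types, so fewer cells of a type and less RNA per cell cannot be told apart.

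In the Arabidopsis root, new cells are made in the meristem at the tip, where a quiescent centre and its stem cells lie. Farther from the tip, cells stop dividing, enlarge their vacuoles, loosen and rebuild their walls, elongate and then differentiate. Dividing cells make ribosomes and mitotic machinery, whereas elongating cells make wall polymers, which are assembled in the Golgi apparatus and carried to the surface in vesicles. The labels do not say to which of these zones the section or the stump belongs.

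The values are signals as the MAS5 software reports them, in arbitrary units scaled to the same trimmed mean on every array (246.46 to 248.59 in these files). The 3 section arrays resembled each other, with pairwise correlations of log2 signals of 0.960 to 0.967 and median signals of 66.1 to 73.5. The stump arrays were less alike (0.793 to 0.929). Stump arrays 1 and 2 stood apart with median signals of 141.8 and 121.3, against 86.4 on array 4 and 74.3 on array 3. Stump array 1 correlated at 0.793 to 0.846 with the other stump arrays and at 0.747 to 0.762 with the section arrays, while array 3 correlated at 0.907 to 0.92 with the section arrays. Results are therefore also given without stump arrays 1 and 2, a setting that also leaves out 1 tip array and 1 later stump array of high median signal from the shared spread.

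In the section, 5 of 7 tubulin genes, 8 of 24 QUA2-family pectin methyltransferase genes and 4 of 9 vacuolar proton pump genes were higher than in the stump (3, 9 and 1 without stump arrays 1 and 2). Of the genes for making ribosomes 54 of 65 were lower, and of those of the cell cycle and mitosis 12 of 20 (50 and 13 without these arrays). Expansins had 2 higher and 0 lower of 19 (1 and 0 without these arrays). Pectin methylesterases had 2 higher and 3 lower of 42 (4.762% and 7.143%), near the shares of all probe sets that follow. A difference between these families was not tested. Of 22746 probe sets, 2318 (10.2%) were called, which means an adjusted p below 0.05 from limma together with a log2 difference of 1 or more in either direction. Of these, 917 probe sets (4.03%) were higher in the section and 1401 (6.16%) were lower. The median log2 difference over all probe sets was -0.228, and 14915 probe sets were negative against 7831 positive. The called probe sets of each direction that separated all section arrays from all stump arrays numbered 814 of 917 higher (88.8%) and 1201 of 1401 lower (85.7%). Over all probe sets called or not, the section arrays lay above every stump array for 1771 (7.79%) and below every stump array for 3057 (13.44%).

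The balance of directions depended on scaling. The main values have 39.6% of calls higher in the section, against 54.6% after quantile normalization (933 higher and 777 lower) and 83.6% after centring each array on its median (2084 higher and 409 lower). Centring moved the median of all probe sets to 0.179. Without stump arrays 1 and 2 there were 797 higher (3.5%) and 1042 lower (4.58%), of which 513 and 660 were also called with all arrays. Adding centring to that setting gave 1092 higher and 744 lower. No probe set called in one direction in the first of these fits was called in the other under any of the settings. In a fit of the 7 arrays alone, which takes the spread from the compared groups only, 287 probe sets were higher and 282 lower. Of the 116 genes named below with a call, 68 kept it. The same kind of fit against the stump labelled 8 dpg raised the calls from 4054 to 4592. The main fit shares the spread over all groups, while stump arrays at 0 h were less alike (0.793 to 0.929) than those at 8 dpg (0.9692 to 0.9763). Main adjusted p-values may thus be too small for this comparison, which was not tested. Lower calls were spread over dim probe sets too: the 11373 brighter probe sets held 855 higher and 892 lower calls with a median of -0.04, and the 11373 dimmer ones held 62 higher and 509 lower calls with a median of -0.337. A gene group is read below against the median of all probe sets (-0.228), which is a coarse reference because the shift differed with brightness. For a list of bright genes the median of the brighter probe sets (-0.04) is nearer, and for a dim list that of the dimmer ones (-0.337).

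The genes with the largest differences upward in the section were a glutamine amidotransferase-like gene, a gene of the DUF506 family, a protease gene and several peroxidase and wall protein genes. GAT1_2.1, a class I glutamine amidotransferase-like gene, had signals of 434, 1284 and 1297 on the section arrays, against 22.3, 11.8, 5 and 10.1 on the stump arrays, a log2 difference of 4.41 ± 0.60 (SE, 3 and 4 arrays, adjusted p = 1.17e-05). A second probe set of GAT1_2.1 was dimmer, at 31.9 to 59.7 in the section and 5.5 to 210.1 in the stump, and was not called (log2 difference 0.13, adjusted p = 0.875), so the 2 probe sets of this gene disagree. AT2G20670, a gene of the DUF506 family, had 1017, 1358 and 1157 in the section, against 23.6, 34.1, 154 and 9.3 in the stump (4.04 ± 0.60, adjusted p = 3.99e-05). AT3G19390, a papain-type protease with a granulin domain, had 1813, 2294 and 3848 in the section, against 163, 206, 137 and 105 in the stump (3.82 ± 0.48, adjusted p = 5.16e-06). The first 2 genes were dim on most stump arrays, and AT3G19390 was above the overall median signal of 90.3 on every stump array. Genes chosen by size were required to have arrays that do not overlap and a bright group, so their separation is part of the choice.

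The other genes chosen by size had varied annotations. AT3G05150, a sugar transporter family gene, had 904, 865 and 909 in the section, against 22.9, 27.2, 164 and 303 in the stump (2.94 ± 0.48, adjusted p = 1.31e-04). Its difference was 1.85 without stump arrays 1 and 2. AT1G80380, which encodes glycerate kinase, the last enzyme of photorespiration, had 633, 1697 and 1447 in the section, against 45.9, 76.0, 292 and 255 in the stump (2.83 ± 0.36, adjusted p = 6.54e-06). SETH3, a sugar isomerase-domain gene, was higher by 2.80 ± 0.48 (adjusted p = 2.12e-04). Smaller differences among them were those of AT1G74055 (2.57 ± 0.48), AT1G67330 of the DUF579 family of wall-related proteins (2.48 ± 0.48) and AT2G44380, a DC1-domain gene (2.46 ± 0.56), with adjusted p between 6.14e-04 and 0.00333. AT3G57010, a strictosidine synthase-like gene, had 2054, 1759 and 1803 in the section, against 11.9, 806, 641 and 660.0 in the stump (2.39 ± 0.61, adjusted p = 0.00819). The difference of AT3G57010 was 1.38 without stump array 1 and 1.48 without stump arrays 1 and 2, and in a fit of the 7 arrays alone its adjusted p was 0.125.

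Some of the genes that loosen and build the cell wall were higher in the section. Xyloglucan endotransglucosylases cut and rejoin xyloglucan, the main hemicellulose of the primary wall, and 3 of 10 measured members were higher and 0 lower, with a list median of 0.45. XTH16 had signals of 1263, 1362 and 1846 in the section, against 142, 465, 399 and 183 in the stump (2.33 ± 0.41, adjusted p = 2.45e-04). XTH21 was higher by 2.33 ± 0.45 (adjusted p = 7.17e-04) and XTH19 by 2.25 ± 0.44 (adjusted p = 8.96e-04). Every section array exceeded every stump array for the 3 genes, and 4 members were called higher without stump arrays 1 and 2. Expansins, which loosen the wall in acid, gave a different picture, with 2 of 19 members higher, 0 lower and a list median of -0.55. That lay below the median of all probe sets (-0.228) and of the dimmer ones (-0.337). Without stump arrays 1 and 2 the list median was -0.21, against -0.07 of all probe sets. On single arrays, the median of the list minus that of all probe sets overlapped between the tissues. It was -0.47, -0.73 and -0.41 in the section and -0.58, -0.61, -0.35 and -0.89 in the stump. The 2 higher members were EXPB1 (1.74 ± 0.41, adjusted p = 0.00417) and EXLA2 (1.25 ± 0.37, adjusted p = 0.0207). The call on EXLA2 was lost without section array 1 or 3 or stump arrays 1 and 2 together (1.04 to 1.33, adjusted p = 0.0504 to 0.11).

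Cellulose synthase-like genes and COBRA make or order wall glucans and mannans, and 4 of 8 measured members were higher, with a list median of 0.72. COB encodes an anchored protein that orients cellulose microfibrils, and it had 1385, 2083 and 1915 in the section, against 645, 633, 666 and 621 in the stump (1.42 ± 0.25, adjusted p = 2.71e-04). CSLD2, a synthase active in root hairs, was higher by 1.27 ± 0.29 (adjusted p = 0.00369). CSLA03 of the glucomannan synthase family was higher by 2.08 ± 0.56 (adjusted p = 0.0121), and CSLC04, which makes the glucan backbone of xyloglucan, by 1.05 ± 0.30 (adjusted p = 0.0195). The last 2 calls were less stable. CSLA03 lost its call without stump array 1 or section array 3 (1.72 to 1.90, adjusted p = 0.058 to 0.0738). CSLC04 lost its call without stump array 3 or 4 or section array 1 or 3 (0.90 to 1.04, adjusted p = 0.0382 to 0.0893), and after quantile normalization its adjusted p was 0.0582. Without stump arrays 1 and 2, 5 of the 8 were called higher.

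Pectin is made in the Golgi and methylated there by enzymes related to QUASIMODO2 (QUA2). Of 24 QUA2-family genes measured, 8 were higher and 0 lower, 20 had a positive difference, and the list median was 0.72. AT4G14360 had 1926, 1642 and 1998 in the section, against 463, 496, 672 and 534 in the stump (1.73 ± 0.21, adjusted p = 4.81e-06). AT3G23300 (1.53 ± 0.30), AT1G26850 (1.42 ± 0.24) and AT1G29470 (1.36 ± 0.26) were higher with adjusted p of 8.90e-04, 1.72e-04 and 5.55e-04. The count was 9 without stump arrays 1 and 2, 6 after quantile normalization, 13 after median centring and 4 in a fit of the 7 arrays alone. TMN proteins span Golgi and endosome membranes, and all 8 measured members had a positive difference (list median 0.76), with 3 called higher. These were AT5G25100 (1.43 ± 0.24), AT2G01970 (1.38 ± 0.27) and AT5G35160 (1.24 ± 0.32), with adjusted p of 1.61e-04, 9.63e-04 and 0.00989. AT5G35160 lost its call without section array 3 (1.15, adjusted p = 0.0621), and its adjusted p was 0.062 after quantile normalization.

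Genes for vesicle coats and the exocyst, the complex that tethers secretory vesicles at the plasma membrane, were higher in 7 of 29 cases and lower in 0, with a list median of 0.60. CEF, a relative of the COPII coat protein Sec24, had 1414, 986 and 989 in the section, against 438, 476, 395 and 585 in the stump (1.19 ± 0.27, adjusted p = 0.00357). The exocyst subunit gene SEC6 was higher by 1.35 ± 0.30 (adjusted p = 0.00249). AT1G62020 (1.16 ± 0.25) and AT2G21390 (1.02 ± 0.24) encode alpha subunits of the COPI coat and had adjusted p of 0.00233 and 0.00503. Most of these calls sat close to the threshold of 1. SEC6 lost its call without stump arrays 1 and 2 together (0.81, adjusted p = 0.0401). AT1G62020 lost its call without stump array 1 (0.95, adjusted p = 0.0138). AT2G21390 lost its call without stump array 1 or 2 or section array 3 or stump arrays 1 and 2 together (0.77 to 0.98, adjusted p = 0.0149 to 0.0484). Without stump arrays 1 and 2 the list held 3 higher calls, with a median of 0.63, after median centring 16, and in a fit of the 7 arrays alone 1.

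The vacuolar H+-ATPase pumps protons into the vacuole and the trans-Golgi network. All 9 measured subunit genes had a positive difference, with a list median of 0.85, and 4 were called higher. VHA-A3, a membrane subunit at the vacuole, had 1518, 1959 and 1873 in the section, against 680.3, 518, 471 and 561 in the stump (1.63 ± 0.25, adjusted p = 7.14e-05). AT3G58730, which encodes subunit D, was higher by 1.44 ± 0.34 (adjusted p = 0.00484), AT3G42050, which encodes subunit H, by 1.14 ± 0.28 (adjusted p = 0.00598), and VHA-A2 by 1.02 ± 0.26 (adjusted p = 0.00854). VHA-A3 was the 1 member still called without stump arrays 1 and 2, where the list median was 0.67, and 1 was called in a fit of the 7 arrays alone. AT3G58730 lost its call without stump arrays 1 and 2 together (0.68, adjusted p = 0.144). AT3G42050 lost its call without stump array 1 or stump arrays 1 and 2 together (0.78 to 0.89, adjusted p = 0.0234 to 0.0352). VHA-A2 lost its call without stump array 1 or 3 or section array 3 or stump arrays 1 and 2 together (0.79 to 0.96, adjusted p = 0.0163 to 0.0539).

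Tubulins form the microtubules that guide cellulose synthesis as well as the spindle. Of 7 tubulin genes measured, 5 were higher and 0 lower, with a list median of 1.24. TUB1 had 2744, 3339 and 4033 in the section, against 541, 1972, 565 and 468 in the stump (2.14 ± 0.45, adjusted p = 0.00169). The groups did not overlap, and stump array 2 lay nearest to the section arrays. TUB6 was higher by 1.79 ± 0.37 (adjusted p = 0.00145), TUA6 by 1.77 ± 0.39 (adjusted p = 0.00267) and TUB9 by 1.04 ± 0.18 (adjusted p = 2.72e-04). The difference of TUB6 was 1.14 without stump arrays 1 and 2. TUA6 lost its call without stump arrays 1 and 2 together (0.95, adjusted p = 0.0197). TUB9 lost its call without stump array 4 or section array 3 (0.91 to 0.99, adjusted p = 0.00103 to 0.00876), and after quantile normalization its difference was 0.85. Probe sets of close tubulin copies can bind each other's transcripts, so single members are uncertain. The list held 3 higher calls without stump arrays 1 and 2 and 1 in a fit of the 7 arrays alone.

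Wall proteins of the DUF642 family were higher in 4 of 8 cases and lower in 1, with a list median of 1.24. AT5G11420 had 396, 911 and 988 in the section, against 11.5, 54.2, 49.9 and 75.4 in the stump (3.30 ± 0.46, adjusted p = 1.69e-05). AT4G32460 (1.57 ± 0.36, adjusted p = 0.00348) and AT3G08030 (1.13 ± 0.25, adjusted p = 0.00266) were also higher, with overlapping arrays, whereas AT1G29980 was lower (-1.38 ± 0.26, adjusted p = 6.43e-04). AT3G08030 lost its call without stump array 3 or 4 (0.98 to 0.98, adjusted p = 0.00869 to 0.0102). Trichome birefringence-like (TBL) proteins acetylate wall polymers, and 2 of 22 were higher (9.091%) and 1 lower (4.545%), against 4.03% and 6.16% of all probe sets. TBL21 (2.19 ± 0.48, adjusted p = 0.00248) and TBL18 (1.43 ± 0.23, adjusted p = 1.22e-04) were higher and TBL36 (-1.80 ± 0.31, adjusted p = 2.21e-04) was lower. Of 11 measured CrRLK1L receptor kinases, which sense the state of the wall, 2 were higher (18.18%, against 4.03% of all probe sets). The list as a whole had 6 positive and 5 negative differences and a median of 0.065. FER had 595, 512 and 574 in the section, against 96.7, 142, 163 and 237 in the stump (1.68 ± 0.37, adjusted p = 0.00267). THE1 had 1555, 1283 and 1866 in the section, against 217, 540.4, 524 and 315 in the stump (1.96 ± 0.33, adjusted p = 1.57e-04). Both kinase genes separated the groups completely, and both kept their calls without any 1 array.

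Enzymes that act on pectin in the wall were called at shares near those of all probe sets (4.03% higher and 6.16% lower). Of 24 pectate lyase probe sets, 1 was higher and 1 lower (4.167% each), and of 42 pectin methylesterases 2 were higher (4.762%) and 3 lower (7.143%). The pectate lyase AT3G53190 had 306, 257 and 195 in the section, against 1964, 1326, 1089 and 2060.5 in the stump (-2.50 ± 0.23, adjusted p = 3.12e-08), and the section arrays lay far below the stump arrays. The pectate lyase AT5G48900 was higher by 1.56 ± 0.51 (adjusted p = 0.0383). Among the methylesterases, AT1G02810 (-1.70 ± 0.33, adjusted p = 8.61e-04) and AT4G02300 (-1.17 ± 0.36, adjusted p = 0.0263) were lower. AT2G47550 (1.70 ± 0.54, adjusted p = 0.032) and AT3G10720 (1.104 ± 0.32, adjusted p = 0.0198) were higher, with overlapping arrays. These calls were fragile apart from AT3G53190 and AT1G02810. AT5G48900 lost its call without stump array 1 or 4 or section array 1, 2 or 3 or stump arrays 1 and 2 together (0.91 to 1.60, adjusted p = 0.0637 to 0.226). AT4G02300 lost its call without stump array 1 or 2 or section array 1, 2 or 3 or stump arrays 1 and 2 together (-0.59 to -1.21, adjusted p = 0.0728 to 0.384). AT2G47550 lost its call without stump array 3 or 4 or section array 1, 2 or 3 (1.29 to 1.86, adjusted p = 0.0561 to 0.171), but reached 2.92 without stump arrays 1 and 2. AT3G10720 lost its call without stump array 1 or 4 or section array 2 or 3 (0.93 to 1.05, adjusted p = 0.0478 to 0.123).

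Class III peroxidases are secreted enzymes that cross-link walls and turn over reactive oxygen species, and UPB1 is a transcription factor known to repress peroxidase genes where cells leave the meristem. Of 55 peroxidases measured, 7 were higher and 2 lower (12.73% and 3.636%), while the list median was -0.34. AT3G01190 had 2671, 3116 and 4377 in the section, against 104, 765, 337 and 65.8 in the stump (3.74 ± 0.76, adjusted p = 0.00127). AT4G11290 had 1237, 1268 and 1502 in the section, against 12.2, 284, 129.9 and 173 in the stump (3.21 ± 0.51, adjusted p = 9.28e-05). AT4G30170 was higher by 2.56 ± 0.69 (adjusted p = 0.0122) and AT2G18980, with overlapping arrays, by 2.34 ± 0.56 (adjusted p = 0.00553), whereas AT5G24070 was lower (-1.78 ± 0.43, adjusted p = 0.00555). UPB1 itself had 706, 588 and 1125 in the section, against 65.8, 382, 202 and 90.3 in the stump (2.13 ± 0.48, adjusted p = 0.00292), and was the 1 called gene of 9 root patterning and zonation genes. AT4G30170 lost its call without stump array 1 or section array 3 (1.88 to 2.40, adjusted p = 0.0661 to 0.0724). AT2G18980 lost its call without section array 3 (2.04, adjusted p = 0.0537). AT5G24070 lost its call without section array 3 (-1.44, adjusted p = 0.0689). Without stump arrays 1 and 2, 10 peroxidases were higher and 1 was lower, and in a fit of the 7 arrays alone 3 were higher and 0 lower.

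**Figure D1:**
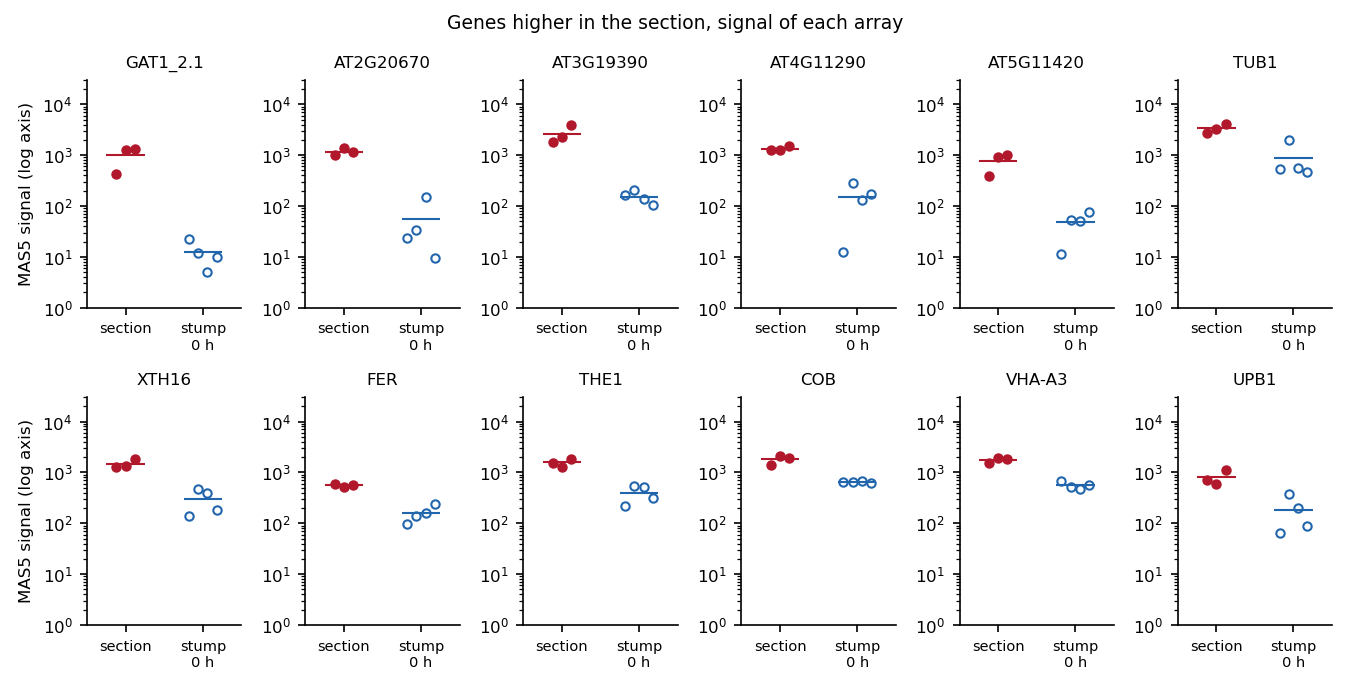
Signals of 12 genes called higher in the section, one panel a gene, on a log axis; filled red circles are the 3 section arrays, open blue circles the 4 stump arrays at 0 h, and lines mark the group means. The circles of the groups do not overlap in any panel, and the gap is widest for GAT1_2.1, AT2G20670 and AT3G19390.

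Genes linked to starvation and to the breakdown of branched-chain amino acids were higher in 5 of 10 cases and lower in 0, with a list median of 1.03. GAT1_2.1 and AT2G20670, described above for the size of their difference, belong to this list. It was drawn up with earlier results of these data known, so its count and median may be partly set by the choice of members. MCCA, a subunit of the mitochondrial enzyme methylcrotonyl-CoA carboxylase of leucine breakdown, had 545, 1048 and 914 in the section, against 248, 172, 109 and 226 in the stump (1.98 ± 0.30, adjusted p = 4.68e-05). AT5G19120, an aspartyl protease family gene, was higher by 2.19 ± 0.48 (adjusted p = 0.00268), or by 1.23 without stump arrays 1 and 2. Of 5 probe sets for the mitochondrial enzyme succinate dehydrogenase, SDH1-1 (1.26 ± 0.30, adjusted p = 0.00481) and SDH1-2 (1.59 ± 0.41, adjusted p = 0.00838) were called higher. They encode its flavoprotein subunit, and close copies of this kind can share probes. SDH1-1 lost its call without stump array 1 or stump arrays 1 and 2 together (0.73 to 0.89, adjusted p = 0.0298 to 0.0475).

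Papain-type proteases were higher in 4 of 19 cases. Beside AT3G19390 the 4 higher in the main fit were AT3G43960 (1.72 ± 0.40, adjusted p = 0.00414), CP1 (1.42 ± 0.42, adjusted p = 0.022) and AT4G01610, a cathepsin B-like gene with overlapping arrays (1.31 ± 0.42, adjusted p = 0.0349). CP1 lost its call without stump array 1 or section array 2 or 3 or stump arrays 1 and 2 together (1.04 to 1.47, adjusted p = 0.0601 to 0.114). AT4G01610 lost its call without stump array 1 or 2 or section array 1, 2 or 3 or stump arrays 1 and 2 together (0.43 to 1.34, adjusted p = 0.08 to 0.466). Serine carboxypeptidase-like genes moved both ways, with 3 of 29 higher and 3 lower (10.34% each, against 4.03% and 6.16% of all probe sets). The gene scpl46 (1.83 ± 0.37, adjusted p = 0.00115), scpl40 (1.58 ± 0.38, adjusted p = 0.00532) and SCPL34 (1.31 ± 0.40, adjusted p = 0.0257) were higher and scpl18 (-1.26 ± 0.34, adjusted p = 0.0139) was lower. SCPL34 lost its call without stump array 4 or section array 2 or 3 (1.06 to 1.41, adjusted p = 0.0557 to 0.158). The call on scpl18 was lost without section array 2 (-0.82, adjusted p = 0.165). Among 12 defensin genes, small secreted antimicrobial proteins, LCR68 was higher, with 1954, 1847 and 2549 in the section, against 162, 708, 366 and 250.5 in the stump (2.58 ± 0.54, adjusted p = 0.00167). PDF2.5 was lower (-1.74 ± 0.50, adjusted p = 0.0181). Each direction thus held 1 of 12 defensins (8.333%), against 4.03% higher and 6.16% lower among all probe sets. PDF2.5 lost its call without stump array 1 or section array 2 or 3 (-1.097 to -1.70, adjusted p = 0.0713 to 0.112), and was at -1.03 without stump arrays 1 and 2. Of 12 dehydrin and LEA genes, which protect cells from water loss, COR47 (2.31 ± 0.61, adjusted p = 0.0114) and AT2G44060 (1.38 ± 0.41, adjusted p = 0.0243) were higher. That is 16.67% of the list, against 4.03% of all probe sets, and the list median was -0.065. COR47 lost its call without section array 3 (2.20, adjusted p = 0.059). AT2G44060 lost its call without stump array 1 or section array 2 or 3 or stump arrays 1 and 2 together (0.81 to 1.40, adjusted p = 0.0715 to 0.15).

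Among the 35 gene lists described here, the largest share of calls was in genes that build ribosomes, and it was downward. Of 65 probe sets for ribosome biogenesis and RNA polymerase I, the enzyme that transcribes ribosomal RNA, 54 were lower in the section (83.08%, against 6.16% of all probe sets) and 0 higher, and 64 had a negative difference. The list median was -1.39. AT3G25940, a small TFIIS-like subunit of RNA polymerase I, had 116, 71.2 and 69.2 in the section, against 824, 495, 621 and 458 in the stump (-2.41 ± 0.27, adjusted p = 8.23e-07). AT3G03920, of the GAR1 family that guides pseudouridylation of ribosomal RNA, had 1528, 1428 and 748 in the section, against 8862, 4976, 5052 and 7157 in the stump (-2.39 ± 0.28, adjusted p = 2.31e-06). In both cases the brightest section array was well below the dimmest stump array. AT5G61330, an rRNA processing protein gene, was lower (-2.22 ± 0.21, adjusted p = 7.50e-08), as was AT5G15750, an RNA-binding protein gene with an S4 domain (-1.88 ± 0.26, adjusted p = 1.65e-05). NRPA2, the second largest subunit of RNA polymerase I and chosen after its values were seen, had 371, 321 and 182 in the section, against 893, 615, 679 and 1461 in the stump (-1.51 ± 0.26, adjusted p = 2.42e-04). Lower calls numbered 50 without stump arrays 1 and 2, 46 after quantile normalization, 29 after median centring and 28 in a fit of the 7 arrays alone, and the list median stayed between -0.98 and -1.52 under these settings.

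Cytosolic ribosomal proteins, the products assembled by that machinery, fell in 36 of 135 cases (26.67%) and rose in 0, with a positive difference in 7 and a list median of -0.80. Their signals are among the brightest on the array. AT2G32220, an L27 family gene, had 137, 77.4 and 63.4 in the section, against 764, 618, 483 and 458 in the stump (-2.31 ± 0.28, adjusted p = 4.11e-06). AT1G15250 of the L37 family (-2.11 ± 0.37, adjusted p = 2.56e-04), AT1G80750 of the L7 family (-1.74 ± 0.31, adjusted p = 3.80e-04) and AT5G15520 of the S19 family (-1.48 ± 0.26, adjusted p = 2.35e-04) were lower too. These families hold near-identical copies, so the split among them is uncertain. The count was 34 without stump arrays 1 and 2, 30 after quantile normalization, 16 after median centring and 12 in a fit of the 7 arrays alone.

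Genes of the cell cycle and mitosis fell as well. Of 20 such genes, 12 were lower and 0 higher, 19 had a negative difference and the list median was -1.29. The list also holds SIM, a regulator of endoreduplication, so not every member is mitotic. The gene 3xHMG-box2, whose product binds mitotic chromosomes, had 159, 148 and 114 in the section, against 2337, 442, 676 and 816 in the stump (-2.40 ± 0.37, adjusted p = 5.95e-05). Its relative 3xHMG-box1 was lower (-1.92 ± 0.29, adjusted p = 4.00e-05). Aurora kinases drive spindle function and cell plate formation, and all 3 Arabidopsis members were lower. AUR1 had 214, 224 and 245 in the section, against 1183, 535, 523 and 589 in the stump (-1.43 ± 0.32, adjusted p = 0.00292). AUR2 (-1.74 ± 0.27, adjusted p = 7.11e-05) and AUR3 (-1.51 ± 0.26, adjusted p = 1.77e-04) were lower. Stump array 1 was far above the others for AUR1, and each section array was below each stump array. The list held 13 lower and 1 higher call without stump arrays 1 and 2, 8 lower after quantile normalization, 7 lower after median centring and 6 lower in a fit of the 7 arrays alone.

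DNA replication and histone genes gave 1 call between them. Of 5 DNA replication genes, AT3G42660, a WD-repeat gene, was lower (-1.18 ± 0.34, adjusted p = 0.0203). It lost its call without stump array 1 or 2 or section array 2 or 3 or stump arrays 1 and 2 together (-0.50 to -1.18, adjusted p = 0.0574 to 0.287). None of 15 histone probe sets was called by limma (4 had an unadjusted p under 0.05), although AT1G06760 (0.99 ± 0.31, adjusted p = 0.0309) and HON4 (0.96 ± 0.31, adjusted p = 0.033), both linker histone genes, came close to the threshold of 1 from the higher side. The difference between these lists and the cell cycle and mitosis list was not tested.

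Mannose-binding lectins of the jacalin type, encoded by neighbouring genes on chromosome 1, were lower in 3 of 5 cases, with a list median of -2.14. This list was drawn up with earlier results of these data known, which limits what its count shows. AT1G52050 had 211, 256 and 114 in the section, against 863, 1320.0, 3352 and 1171 in the stump (-2.78 ± 0.49, adjusted p = 2.55e-04). AT1G52060 had 264, 279 and 36.8 in the section, against 831, 1111, 2191 and 1925 in the stump (-2.96 ± 0.50, adjusted p = 1.86e-04). AT1G52070 was lower (-2.14 ± 0.46, adjusted p = 0.00215). Section array 3 was the dimmest of all, and no section array reached a stump array for the 3 genes. The 3 calls held under quantile normalization, median centring and without any 1 array.

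Genes for peptide and hormone signals moved in small numbers. CLE peptides are secreted signals, and CLE41 and CLE44 encode the same peptide, which keeps vascular stem cells dividing. CLE41 had 72.7, 80.9 and 94.3 in the section, against 599, 279, 358 and 187 in the stump (-1.65 ± 0.34, adjusted p = 0.00155), and CLE44 was lower (-1.47 ± 0.44, adjusted p = 0.0242), with overlapping arrays. They were the 2 called of 6 CLE genes (33.33%, against 6.16% lower among all probe sets), and 1 was called without stump arrays 1 and 2. CLE44 lost its call without stump array 1 or 2 or section array 1 or 3 or stump arrays 1 and 2 together (-0.64 to -1.60, adjusted p = 0.0562 to 0.452). IAGLU, which joins glucose to the auxin indole-3-acetic acid, had 132, 66.4 and 99.0 in the section, against 373, 423, 406 and 593 in the stump (-1.88 ± 0.27, adjusted p = 2.51e-05). WES1, a GH3 enzyme that joins auxin to amino acids, was lower (-1.31 ± 0.44, adjusted p = 0.0435), with overlapping arrays. WES1 lost its call without stump array 1 or 2 or section array 1, 2 or 3 or stump arrays 1 and 2 together (-0.38 to -1.57, adjusted p = 0.0569 to 0.687). These were the 2 lower calls of 13 auxin response and conjugation genes (15.38%, against 6.16% of all probe sets), with 0 higher. The list median was -0.43 in the main fit. It was -0.03 without stump arrays 1 and 2, where that of all probe sets was -0.07. After quantile normalization it was -0.06, against -0.03, and after median centring -0.02, against 0.179. Each of these 3 settings held 1 lower call of the list.

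The other genes chosen for the size of their decrease belong to no such group. AT3G15240 had 6.7, 28.8 and 3.3 in the section, against 1552, 164, 200.2 and 544 in the stump (-3.37 ± 0.49, adjusted p = 2.81e-05), while a second, dim probe set of it was not called (-0.45, adjusted p = 0.532). AT5G58784, a cis-prenyltransferase gene of isoprenoid synthesis, had 39.9, 13.6 and 16.0 in the section, against 381, 508, 615 and 271 in the stump (-3.08 ± 0.42, adjusted p = 1.17e-05). Stump array 1 was the brightest for AT3G15240 and stump array 3 for AT5G58784, and the separation of the groups was required by the choice. AT3G13175 (-2.87 ± 0.34, adjusted p = 2.31e-06), AT2G45860 (-2.81 ± 0.54, adjusted p = 6.98e-04) and AT1G15480, a pentatricopeptide repeat gene of organelle RNA processing (-2.52 ± 0.39, adjusted p = 5.88e-05), were lower. The SKU5-similar gene sks16, related to multicopper oxidases (-2.45 ± 0.49, adjusted p = 0.00106), AT2G42110 (-2.36 ± 0.45, adjusted p = 7.30e-04) and AT3G49190, of the wax ester synthase family (-2.33 ± 0.47, adjusted p = 0.00127), were lower as well. AT3G02120 was lower (-2.50 ± 0.60, adjusted p = 0.00524), and lost its call without stump arrays 1 and 2 together (-1.17, adjusted p = 0.0513).

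**Figure D2:**
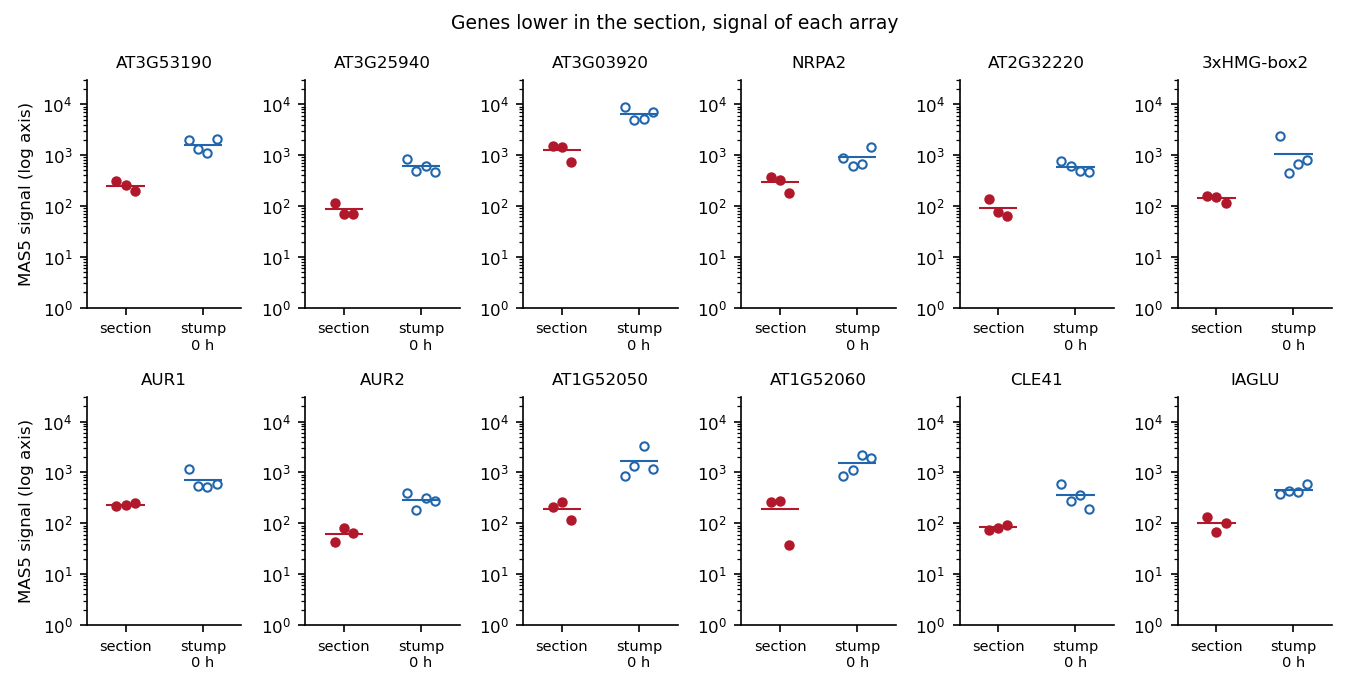
Signals of 12 genes called lower in the section, one panel a gene, on a log axis, with filled red circles for the 3 section arrays, open blue circles for the 4 stump arrays at 0 h and lines for the group means. In each panel the highest red circle lies below the lowest blue one.

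Organelle and metabolic lists showed few calls. Plastid-encoded genes were lower in 3 of 69 cases (4.348%) and higher in 1 (1.449%), against 6.16% and 4.03% of all probe sets. Their list median was -0.27, close to that of all probe sets. The ribosomal protein genes rpl20 (-1.46 ± 0.38, adjusted p = 0.00874), rps15 (-1.53 ± 0.42, adjusted p = 0.015) and rps3 (-1.05 ± 0.32, adjusted p = 0.0277) were lower and atpB of the ATP synthase (1.04 ± 0.33, adjusted p = 0.0316) was higher. The 4 calls were unstable. The call on rpl20 was lost without section array 3 (-1.33, adjusted p = 0.0606), that on rps15 without stump array 2 or section array 1 or 3 (-1.11 to -1.495, adjusted p = 0.0582 to 0.0744), that on rps3 without stump array 1, 2 or 4 or section array 1, 2 or 3 or stump arrays 1 and 2 together (-0.94 to -1.13, adjusted p = 0.0515 to 0.0975), and that on atpB without stump array 1 or 2 or section array 1, 2 or 3 or stump arrays 1 and 2 together (0.49 to 1.15, adjusted p = 0.0512 to 0.362). None of 8 nuclear photosynthesis genes was called by limma (1 had an unadjusted p under 0.05), and the smallest p belonged to CHLI2 (-0.77 ± 0.35, adjusted p = 0.148) and PORB (-0.63 ± 0.40, adjusted p = 0.307), both of chlorophyll synthesis.

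Of 24 cytochrome P450 genes, CYP71B26 (-1.48 ± 0.39, adjusted p = 0.0114) and CYP78A9 (-1.21 ± 0.33, adjusted p = 0.0139) were lower. That is 8.333% of the list, against 6.16% of all probe sets. CYP71B26 lost its call without section array 3 (-1.34, adjusted p = 0.071), and was at -2.45 without stump arrays 1 and 2. CYP78A9 lost its call without stump array 1 or section array 1 or 3 or stump arrays 1 and 2 together (-0.76 to -1.17, adjusted p = 0.064 to 0.202). Of 57 glutathione and glucosyl transferases, which conjugate small molecules, 4 were lower (7.018%) and 1 higher (1.754%), near the shares of all probe sets (6.16% and 4.03%). Beside IAGLU, UGT87A2 (-1.30 ± 0.38, adjusted p = 0.0202) and GSTF4 (-1.15 ± 0.31, adjusted p = 0.013) were lower and UGT71C4 (1.38 ± 0.34, adjusted p = 0.00581) was higher. UGT87A2 lost its call without section array 2 (-1.097, adjusted p = 0.116). GSTF4 lost its call without stump array 2 or section array 3 or stump arrays 1 and 2 together (-0.91 to -1.07, adjusted p = 0.0465 to 0.0959). UGT71C4 lost its call without section array 1 (1.12, adjusted p = 0.0584). Among 9 autophagy genes ATG8G, which marks autophagosome membranes, was lower (-1.26 ± 0.26, adjusted p = 0.0016), but not after quantile normalization (-0.92) or median centring (-0.85). The root hair list of 12 genes held 1 call, CSLD2. Together the 35 lists hold 808 probe sets, 74 called higher and 131 lower, and 24 further lists add 106 probe sets with 1 higher and 3 lower call.

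**Figure D3:**
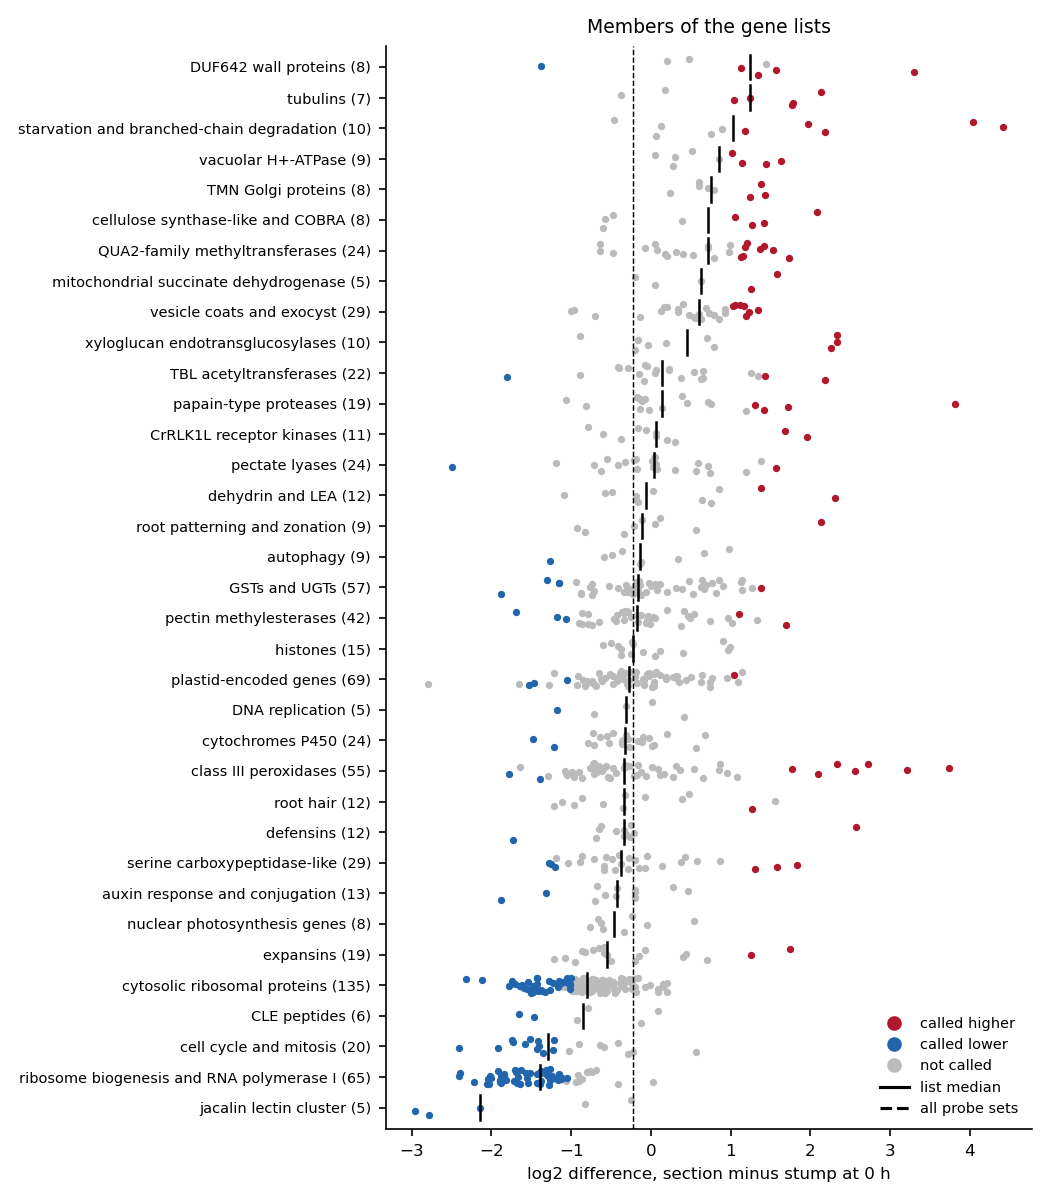
Log2 difference, section minus stump at 0 h, of every member of the 35 gene lists, one row a list; red points are called higher, blue points called lower, grey points not called, short lines are list medians and the dashed line is the median of all probe sets at -0.228. Ribosome biogenesis, ribosomal proteins and the cell cycle lie left of the dashed line, and tubulins, QUA2-family and TMN genes, vesicle coats and the vacuolar proton pump lie to its right.

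Markers of root cell types could be followed for few genes, because 10 of 100 markers, in 6 of 11 cell types, had a probe set with 1 gene name. No marker of root cap, endodermis, xylem, phloem or non-hair epidermis was among them. Both dividing-cell markers, AUR1 and AUR2, were lower in the section, as given above. The quiescent centre and stem cell markers BBM (-0.33 ± 0.39, adjusted p = 0.605) and AGL42 (-0.83 ± 0.44, adjusted p = 0.208) were not called. BBM had 5.8, 6.8 and 12.5 in the section, against 23.3, 21.8, 6.6 and 25.5 in the stump, and was dim and overlapping in both. The root hair markers EXPA7 (-0.87 ± 0.64, adjusted p = 0.378) and EXPA18 (-0.07 ± 0.58, adjusted p = 0.954), the pericycle marker LBD16 (-0.41 ± 0.49, adjusted p = 0.606) and the green tissue marker RCA (-0.33 ± 0.44, adjusted p = 0.642) were not called either. The 2 cortex markers went opposite ways. AT1G09750 had 1025, 1337 and 1725 in the section, against 413, 834, 242 and 279 in the stump (1.68 ± 0.43, adjusted p = 0.00805), and AT1G62500 had 9.7, 35.3 and 33.1 in the section, against 149, 155, 93.8 and 260.5 in the stump (-1.73 ± 0.43, adjusted p = 0.00746). AT1G09750 lost its call without section array 3 (1.499, adjusted p = 0.0645). AT1G62500 lost its call without section array 1 (-1.505, adjusted p = 0.0512). The part of cell type composition in the results above was not tested.

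The section was also set against 2 other tissues of the series, the stump labelled 8 dpg (3 arrays, whose title places the cut at 0 h and whose source name places it later) and the intact distal tip at 4 dpg (4 arrays). The 3 comparisons share the section arrays, so they are given side by side and do not support each other. Against the stump at 8 dpg 4054 probe sets (17.8%) were called, 1780 higher (7.83%) and 2274 lower (10%). Against the tip at 4 dpg 3884 (17.1%) were called, 1633 higher (7.18%) and 2251 lower (9.9%). Of the 65 ribosome biogenesis probe sets, 58 were lower than in the stump at 8 dpg and 62 lower than in the tip, with list medians of -2.02 and -1.98. Cell cycle genes were lower in 14 of 20 cases and higher in 1 against either tissue, and 4 of 5 jacalin-type lectin genes were lower, with list medians of -5.45 against the stump at 8 dpg and -4.30 against the tip.

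Among the wall and Golgi lists, QUA2-family genes were higher in 14 of 24 cases against the stump at 8 dpg and in 12 against the tip, with 1 lower in each. Vesicle coat and exocyst genes were higher in 16 of 29 cases against the stump at 8 dpg and in 15 against the tip, and vacuolar H+-ATPase genes in 5 and 7 of 9. Tubulins were higher in 3 of 7 cases against the stump at 8 dpg and in 5 against the tip. Expansins had 1 higher and 2 lower of 19 in each comparison, and of 24 pectate lyases 3 were higher and 3 lower against the stump at 8 dpg, and 4 higher and 2 lower against the tip. As a level, the mean log2(signal + 32) of the vesicle coat list was 9.26 ± 0.02 in the section (SD, n = 3), 8.74 ± 0.07 in the stump at 0 h (n = 4), 8.31 ± 0.04 in the stump at 8 dpg (n = 3) and 8.42 ± 0.11 in the tip (n = 4). The same level of the ribosome biogenesis list was 7.86 ± 0.25 in the section, 9.29 ± 0.30 in the stump at 0 h, 9.89 ± 0.03 in the stump at 8 dpg and 9.79 ± 0.13 in the tip. The stump at 0 h lay between the section and the other tissues for both lists.

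For single genes the order varied. GAT1_2.1 averaged 1005 ± 495 in the section, against 12.3 ± 7.27 in the stump at 0 h, 7.2 ± 4.65 in the stump at 8 dpg and 8.75 ± 2.05 in the tip (mean ± SD, 3, 4, 3 and 4 arrays). XTH16 averaged 1490 ± 312 in the section, against 297 ± 159, 51.6 ± 10 and 52.5 ± 59.8 in the same tissues, and AT3G01190 averaged 3388 ± 885, against 318 ± 321, 23.2 ± 15.7 and 69.1 ± 46. All 3 genes were brightest in the section. AT1G52050 averaged 194 ± 72.6 in the section, against 1676 ± 1133 in the stump at 0 h, 9628 ± 1289 in the stump at 8 dpg and 6805 ± 1379 in the tip, so in these means the fresh stump lay below the tip and the section lower still. AUR1 averaged 228 ± 15.9 in the section, against 707 ± 318, 1377 ± 180.1 and 997 ± 314. UPB1 averaged 806 ± 282 in the section, against 185 ± 144, 13.7 ± 9.23 and 96.2 ± 41.2.

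**Figure D4:**
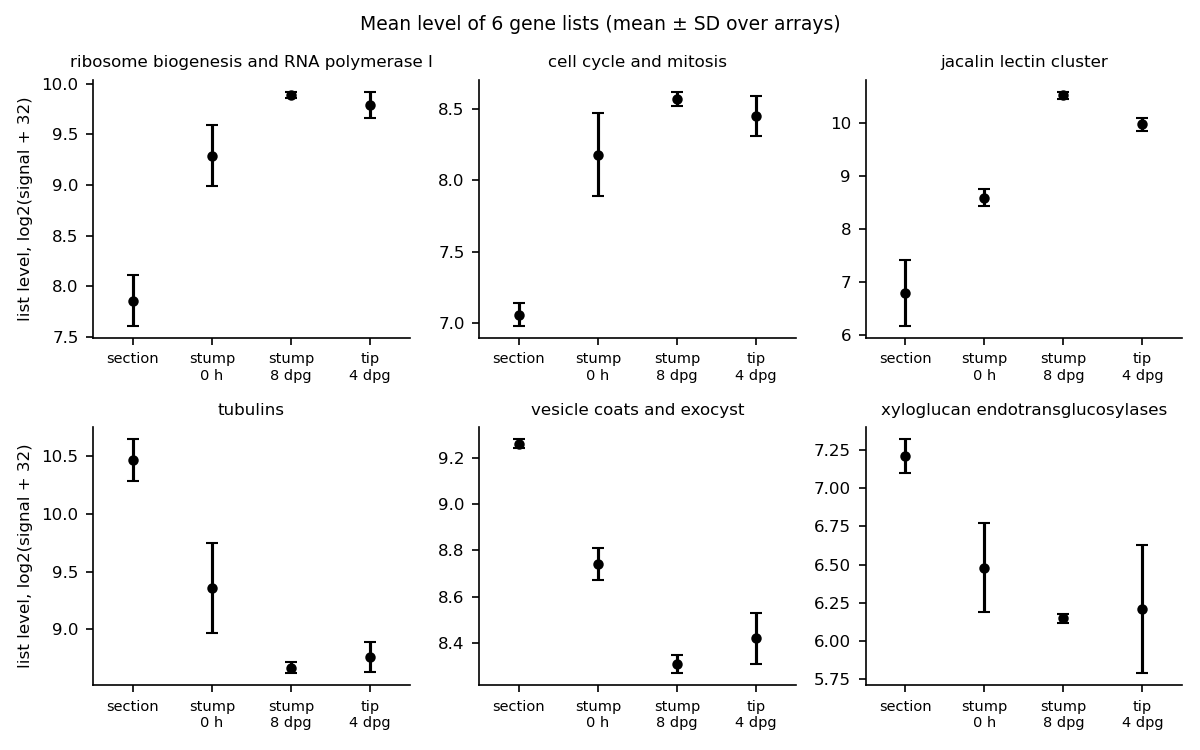
Mean log2(signal + 32) of 6 gene lists in the section, the stump at 0 h, the stump at 8 dpg and the tip at 4 dpg; points are means over arrays (3, 4, 3 and 4) and bars are SD. Ribosome biogenesis, cell cycle and jacalin lists are lowest in the section, and the tubulin, vesicle coat and xyloglucan endotransglucosylase lists are highest there.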

How the data were processed

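Expression was measured in Arabidopsis root tissue on 30 Affymetrix ATH1 arrays in 8 groups. The deposited values are MAS5 signals made by the authors, per the submitters' processing notes, with no software version given in the sources used here.

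Signals were analysed as log2(signal + 32) with limma 3.58.1 in R 4.3.3, with 1 coefficient per group over all 30 arrays, empirical Bayes moderation with a trend and Benjamini-Hochberg adjustment over 22746 probe sets. A log2 difference on this scale understates the change of dim genes. Tables and plots were made with Python 3.11.15, pandas 2.3.3 and matplotlib 3.10.9. The fit was tested on simulated data with changes in brighter probe sets and the same spread in all groups. It called 23.9% of 2-fold changes, which lie at the threshold itself, 83.6% of 4-fold and 98.5% of 8-fold ones, with 5 false calls. The real stump arrays at 0 h were less alike than other groups, so neither these percentages nor the 5 false calls carry over to the real comparison. A gene not called can still differ, and false calls can be more frequent than in the simulation. Of the probe sets, 13513 carried 1 gene in the platform annotation, 503 carried several and 8730 were not listed there. Symbols of 13436 were matched to RefSeq's table of TAIR10.1 genes, and family descriptions come from the synonyms in that table. Coordinates and sequences were not used here, so no promoter was searched for motifs.

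Genes are named by 3 rules: up to 15 higher and 15 lower genes with the largest difference among called probe sets without overlap, with 1 gene and with a brighter group above the median signal of 90.3; the called members of gene lists, of which the text gives up to 4 each with the smallest p; and up to 2 members of lists without a call. The members of the comparison, the lists and the rules were chosen with earlier results of these data known, and the lists were redrawn after the annotation had been read. Alternatives were a smaller or larger pseudocount, quantile normalization, centring each array on its median, leaving out the 40% dimmest probe sets, no trend, the compared groups alone, the replicate number as a block, array weights, and leaving out single arrays or those of median signal above 120.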

Additional observations from a re-analysis of the deposited data

Results flagged for a closer look

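In 8 of the 126 genes named and tested (6.3%), 1 of the 4 stump arrays at 0 h lay far from the other 3 by Dixon's test, which chance alone gives in about 1 in 20 groups. TUB1 had a signal of 1972.0 on stump array 2, against 467.6 to 565.1 on the others, and the wall protein gene AT4G32460 had 2592.8 on array 2, against 478.9 to 580.7. The ribosomal protein gene AT1G15250 had 363.0 on array 2, against 1679.9 to 2251.6. The strictosidine synthase-like gene AT3G57010 had 11.9 on array 1, against 641.1 to 806.2, and the linker histone gene AT1G06760 had 489.7 on array 1, against 1377.1 to 1624.6. The kinase gene AUR1 had 1182.9 on array 1, against 522.6 to 588.8. UGT87A2 had 101.1 on array 3, against 162.6 to 177.8, and BBM had 6.6 on array 3, against 21.8 to 25.5. The part of array quality in these values was not tested, and arrays 1 and 2 are also the stump arrays of highest median signal (141.8 and 121.3).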

How the results depend on the processing

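The number of calls between the section and the stump at 0 h depended on the setting. No probe set among the 2318 calls was called the other way under a setting that was run, but the balance of calls turned: 917 higher and 1401 lower became 2084 and 409 with median centring and 933 and 777 with quantile normalization. Centring moved the median of all probe sets to 0.179, against -0.228, and with it list medians such as that of class III peroxidases (0.07, against -0.34) and of plastid-encoded genes (0.13, against -0.27). The total of 2318 became 1008 with the larger pseudocount (563 higher and 445 lower) and 569 in a fit of the compared groups alone (287 and 282). Lower calls became 744 with centring and without the arrays of high median signal. Leaving out each array in turn gave 1217 to 3478 calls, 492 to 1193 higher and 725 to 2285 lower; the total was 1217 without section array 3, 1440 without stump array 1 and 3478 without stump array 3. With the larger pseudocount the calls against the stump at 8 dpg became 2484 and those against the tip at 4 dpg 2062. Of the 116 named genes with a call, 85 to 112 kept it without single arrays, 95 without the arrays of high median signal, 94 with the larger pseudocount, 97 with quantile normalization, 102 with centring, 106 with array weights and 68 in the fit of the compared groups alone. Quantile normalization ended 19 named calls, those on AT1G62500, AT2G21390, AT2G47550, AT3G08030, AT3G10720, AT4G02300, AT5G35160, AT5G48900, ATG8G, CSLC04, CYP71B26, CYP78A9, GSTF4, TUB9, UGT87A2, VHA-A2, WES1, atpB and scpl18. Median centring ended 14, those on AT1G29980, AT1G62500, AT3G42660, AT4G02300, ATG8G, CLE44, CYP71B26, CYP78A9, GSTF4, UGT87A2, WES1, rps15, rps3 and scpl18. The fit of the compared groups alone ended 48, those on AT1G29470, AT1G29980, AT1G62020, AT1G62500, AT2G18980, AT2G21390, AT2G44060, AT2G47550, AT3G02120, AT3G08030, AT3G10720, AT3G42050, AT3G42660, AT3G57010, AT3G58730, AT4G01610, AT4G02300, AT4G30170, AT4G32460, AT5G19120, AT5G24070, AT5G35160, AT5G48900, ATG8G, CLE44, CP1, CSLC04, CYP71B26, CYP78A9, EXLA2, GSTF4, PDF2.5, SCPL34, SDH1-1, SDH1-2, SEC6, TUA6, TUB6, TUB9, UGT87A2, VHA-A2, WES1, atpB, rps15, rps3, scpl18, scpl40 and scpl46. The larger pseudocount ended 22, those on AT1G62500, AT2G21390, AT3G42660, AT4G02300, AT5G24070, ATG8G, CLE44, CP1, CSLC04, CYP78A9, EXLA2, GSTF4, SCPL34, SDH1-2, SEC6, TUB9, UGT87A2, VHA-A2, WES1, atpB, rps3 and scpl18. Array weights ended 10, those on AT2G21390, AT3G42050, AT3G42660, AT4G01610, AT4G02300, CLE44, CYP78A9, VHA-A2, WES1 and atpB. The causes were not tested. In the fit of the compared groups alone, calls against the stump at 8 dpg numbered 4592, against 4054, and pairwise correlations were 0.793 to 0.929 between stump arrays at 0 h and 0.9692 to 0.9763 between those at 8 dpg.

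Replicate numbers are shared by section and stump arrays, and the labels do not say whether they pair them. Deviations of same-numbered arrays from their group means correlated at 0.0351, -0.0663 and -0.004. Arrays of different numbers gave -0.1438 to 0.1421. So few values cannot show whether arrays of the same number share a batch, which was not tested. With the replicate block the count was 2584 (964 higher and 1620 lower), and 114 of the 116 named calls were kept, with CSLC04 (0.95) and rps3 (-0.98) lost. Few arrays limit precision, and dim probe sets carry only a bound on their level. The p-values cover the spread between pools, which are not stated to come from separate sowings.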
